A study of Mus musculus with 51 samples.

Results

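The regions described here are 5-hydroxymethylcytosine (5hmC) peaks called in MC3T3-E1 osteoblast cells with VitC and not without it, and called in intact mouse femur as well. They were chosen by measured values: a peak of the VitC+ MC3T3-E1 list on chromosomes 1 to 19 with a -log10 q of at least 5, no overlap of 1 bp or more with any peak of the VitC- list, and an overlap with both the VitC+ femur list and the Ctrl femur list. Of 257696 peaks in the VitC+ MC3T3-E1 list, 198375 lay on these chromosomes at that significance, 118399 of them were gained with VitC, and 38218 were also in both femur lists. The last number is 32.3% of the gained peaks. A further 33782 gained peaks (28.5%) were in neither femur list, and the remaining gained peaks were in only 1 of them. Among the 79976 peaks that MC3T3-E1 cells had with and without VitC, 40514 (50.7%) were in both femur lists. Only these 40514 are called VitC-independent below, and counts of VitC-independent regions leave out the others. Membership in these 4 lists is the rule itself and is given as a description. A peak that was not called is not an absent mark. The VitC- MC3T3-E1 list held more peaks than the VitC+ list, 288862, but covered less, 148575359 against 197383661 bp.

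5hmC is made from 5-methylcytosine at CpG dinucleotides by the TET dioxygenases, which need iron and 2-oxoglutarate and work better with VitC, an iron reductant. The mark is the starting point of DNA demethylation and is known to lie in the bodies and enhancers of genes a cell type uses. In bone, osteoblasts lay down and mineralize a collagen matrix, and VitC is also the cofactor of the enzymes that hydroxylate collagen.

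MC3T3-E1 is a line of pre-osteoblasts from mouse calvaria, and the cells used here are of 1 subclone. They were cultured for 28 days with β-glycerophosphate and with (VitC+) or without (VitC-) 50 µg/ml VitC for the 5hmC immunoprecipitation (hMeDIP-seq). VitC+ and VitC+/- femurs came from Gulo-/- mice, which cannot make VitC, at 20 weeks of age. The VitC+ mice drank VitC to week 20 and the VitC+/- mice only to week 15, and WT mice of the RNA-seq experiment, also of 20 weeks, have their own Gulo. Ctrl and Tet1/2 cKO femurs came from mice of 11 weeks that all carry Prrx1-Cre, a driver active in limb mesenchyme. The Tet1/2 cKO mice have floxed Tet1 and Tet2 and the Ctrl mice do not, so cells of other origin in the bone keep both enzymes. Femurs of Tet1 cKO and Tet2 cKO mice, with 1 of the genes floxed, entered the RNA fit only through the spread. Marrow had been flushed and periosteum removed. Each group has 1 peak list, pooled over replicates for 5hmC and of 1 replicate by the peak names for the histone marks, so that peak values have no replicates and no test was made between lists, whereas femur RNA-seq has 3 libraries per group.

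The members had a median length of 690 bp (quartiles 461 and 1048) and a median fold enrichment over local background of 5.97 (quartiles 4.59 and 8.27). Gained peaks in neither femur list were shorter, at 400 bp, and weaker, at 4.82, and VitC-independent peaks in both femur lists were longer, at 1198 bp, and stronger, at 9.19. Length matters for all that follows, because a longer region overlaps another list more easily. Just inside the limit on significance were members with a -log10 q of 5.003, 5.005 and 5.02, and just outside were peaks with 4.991, 4.991 and 4.9996. In all, 8718 peaks met the rule except for this limit.

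The sequences show what such a region holds. The strongest members by fold were chosen for the first set, with 250 bases around the summit, read from the GRCm38.p6 (mm10) plus strand and with CpG, the dinucleotide that carries 5hmC, in capitals. The member in an intron of Nsg1, a neuronal endosome protein, had a fold of 34.7 over 2127 bp. The one in an intron of Slc38a4, an amino acid transporter, had 29.6 over 1375 bp, and the one in an intron of Tbc1d12, which has the domain of Rab regulators, had 29.0 over 1023 bp.
Nsg1, chr5:38158155-38158404: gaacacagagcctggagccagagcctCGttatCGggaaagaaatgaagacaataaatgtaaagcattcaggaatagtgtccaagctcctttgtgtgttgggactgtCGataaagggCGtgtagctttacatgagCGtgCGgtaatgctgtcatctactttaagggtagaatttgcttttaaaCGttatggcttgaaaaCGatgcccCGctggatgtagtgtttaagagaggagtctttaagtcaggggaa
Slc38a4, chr15:96999919-97000168: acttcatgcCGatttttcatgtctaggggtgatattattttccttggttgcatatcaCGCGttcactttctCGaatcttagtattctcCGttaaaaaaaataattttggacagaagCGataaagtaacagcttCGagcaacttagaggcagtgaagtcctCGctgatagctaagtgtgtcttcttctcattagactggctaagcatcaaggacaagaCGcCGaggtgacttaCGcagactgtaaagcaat
Tbc1d12, chr19:38844523-38844772: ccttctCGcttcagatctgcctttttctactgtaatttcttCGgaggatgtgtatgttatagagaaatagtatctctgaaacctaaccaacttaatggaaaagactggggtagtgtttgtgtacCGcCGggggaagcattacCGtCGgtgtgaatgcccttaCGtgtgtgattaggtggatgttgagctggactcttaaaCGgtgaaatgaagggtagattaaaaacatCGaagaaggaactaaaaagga
These stretches hold 9, 11 and 9 CpG. The femur folds at these places were below those of the cells, which a choice by the highest fold in the cells favours by itself. Folds of different pooled lists are also not on 1 scale. The strongest VitC+ femur peak at the Nsg1 member had a fold of 6.01 and the VitC+/- list had none, while the Ctrl peak had 3.53 and the Tet1/2 cKO peak 4.04. At the Slc38a4 member the 4 femur folds were 4.50 in VitC+, 3.33 in VitC+/-, 9.38 in Ctrl and 6.99 in Tet1/2 cKO. At the Tbc1d12 member they were 13.8, 8.49, 8.41 and 7.23 in the same order.

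The second set holds whole members of at most 300 bp at genes that the study names as selective for bone. It shows regions that differ in whether femurs short of VitC or of TET1 and TET2 had a peak there. The 3 shown were intergenic, within 30 kb of the start sites of Col1a1 (type I collagen), Prss35 (a serine protease-like protein) and Slc13a5 (a citrate transporter).
Col1a1, chr11:94907147-94907425, a peak in VitC+/- and none in Tet1/2 cKO: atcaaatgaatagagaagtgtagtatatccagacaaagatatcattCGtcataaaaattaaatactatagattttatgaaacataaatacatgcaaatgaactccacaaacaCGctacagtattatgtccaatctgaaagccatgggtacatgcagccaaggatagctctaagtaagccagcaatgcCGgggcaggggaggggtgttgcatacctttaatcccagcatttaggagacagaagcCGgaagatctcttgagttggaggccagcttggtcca
Prss35, chr9:86762912-86763178, a peak in Tet1/2 cKO and none in VitC+/-: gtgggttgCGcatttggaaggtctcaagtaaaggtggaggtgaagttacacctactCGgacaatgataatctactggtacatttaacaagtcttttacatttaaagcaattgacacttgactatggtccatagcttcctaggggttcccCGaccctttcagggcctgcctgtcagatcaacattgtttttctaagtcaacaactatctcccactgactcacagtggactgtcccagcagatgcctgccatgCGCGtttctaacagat
Slc13a5, chr11:72238563-72238815, a peak in both deficient femur lists: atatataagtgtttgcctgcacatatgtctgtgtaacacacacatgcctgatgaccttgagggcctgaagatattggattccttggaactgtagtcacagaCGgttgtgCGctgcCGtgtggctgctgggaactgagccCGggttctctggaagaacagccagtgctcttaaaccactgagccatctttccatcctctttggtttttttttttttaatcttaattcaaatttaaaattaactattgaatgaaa
They hold 4, 5 and 4 CpG.

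In 300 bases around the summit, members had a median of 4 CpG, against 2 at positions taken every 10 kb along the same chromosomes. The observed over expected CpG ratio was 0.34 in members, 0.33 in VitC-independent regions, 0.27 in gained peaks in neither femur list and 0.15 on the genome grid. GC content differed less, with medians of 42.7% in members and 41.7% on the grid. The letters of 5 short motifs were counted on both strands of these windows, and they may overlap each other. The RUNX motif TGTGGTT, read by the osteoblast factor RUNX2 and its relatives, was in 11.6% of member windows, 10.3% of VitC-independent, 12.6% of gained peaks in neither femur list and 6.96% of grid windows. The AP-1 motif TGANTCA was in 11.7% of member and 8.93% of grid windows, the TEAD motif ACATTCC in 5.51% and 4.09%, the C/EBP motif TTGCNNAA in 14.8% and 13.7%, and the steroid receptor motif ACANNNTGT in 10.5% and 9.74%. None of the 5 separated members from gained peaks outside the femur lists by more than about 1 percentage point.

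Most members were inside genes. Of the midpoints, 67.5% were intronic, 5.34% in UTR or non-coding exons, 1.73% in coding exons, 5.74% within 1 kb of a start site and 19.7% intergenic. In gained peaks that femur lacked, 47.3% were intronic and 41.1% intergenic, and the genome grid had 42.1% and 51.0%. VitC-independent regions lay between, with 63.0% and 28.9%. By overlap, 78.8% of members touched a gene (95% exact binomial interval 78.3 to 79.2%, which covers counting only, since neighbouring peaks are not independent).

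**Figure D1:**
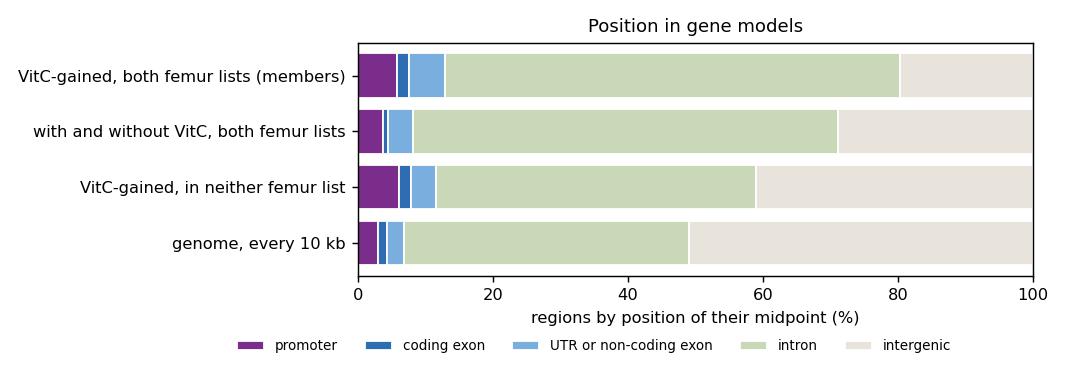
Share of regions (x axis, percent) by the position of their midpoint in RefSeq gene models, for the genome grid, gained peaks in neither femur list, VitC-independent peaks in both femur lists and the members. Members had 67.5% intronic and 19.7% intergenic midpoints, against 47.3% and 41.1% in gained peaks that neither femur list held.

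The femur lists were used to choose members, and the required overlap limits how far apart the summits can lie. Summit distances are therefore given as a description. The nearest VitC+ femur summit was a median of 131 bp from the member summit and within 100 bp for 44.0% of members. For VitC-independent regions, which were longer, these values were 167 bp and 39.1%. Gained peaks in only 1 femur list, with a median length of 516 bp, were closer. Where they overlapped a VitC+ femur peak, the median distance was 67 bp. In the Ctrl femur list, whose peaks are longer, the median was 190 bp and 38.7% were within 100 bp. Members also lay close to what the cells had without VitC: 28.6% had a VitC- peak within 1 kb of their edge. The share was 29.5% for gained peaks in neither femur list.

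Of the 38218 members, 29408 (76.9%, exact binomial interval 76.5 to 77.4%) overlapped a 5hmC peak of VitC+/- femur. Since members had to be in the VitC+ list, the share without one is read against the whole VitC+ list. Of its 371568 peaks, 22.2% had no overlap in the VitC+/- list, and of the 41518 VitC+ peaks at a member, 23.3% had none. The share at members was thus close to that of the whole list. The VitC+/- list is the larger of the pair, with 399599 peaks, but covers a like length of 174982662 bp against 175469570 bp. In the Tet1/2 cKO list 23006 members (60.2%, 59.7 to 60.7%) had a peak. This list is much smaller than the Ctrl list, with 146626 peaks over 122896249 bp against 259326 peaks over 273392222 bp. Of all Ctrl peaks on the same chromosomes 53.2% had no overlap in the Tet1/2 cKO list, and of the 36011 at a member 37.0% had none. Ctrl peaks at a member were longer, with a median of 1086 bp against 684 bp. With femur peaks of -log10 q of at least 5 only, the shares became 76.3% in VitC+/- and 45.1% in Tet1/2 cKO.

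Both deficient lists together held 47.0% of members. Another 29.98% were in the VitC+/- list and not in Tet1/2 cKO, 13.2% were in Tet1/2 cKO and not in VitC+/-, and 9.83% were in neither. VitC-independent regions overlapped these lists more often, with 84.1% in VitC+/- and 75.1% in Tet1/2 cKO. Part of that goes with length, so regions were split at the quartiles of member length. Among the shortest, 72.5% of members and 81.7% of VitC-independent regions were in the VitC+/- list, and among the longest 82.2% and 85.6%. In the Tet1/2 cKO list the shortest gave 44.7% and 59.6%, and the longest 76.4% and 82.2%. Members were below VitC-independent regions in all 4 length classes and in both lists.

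**Figure D2:**
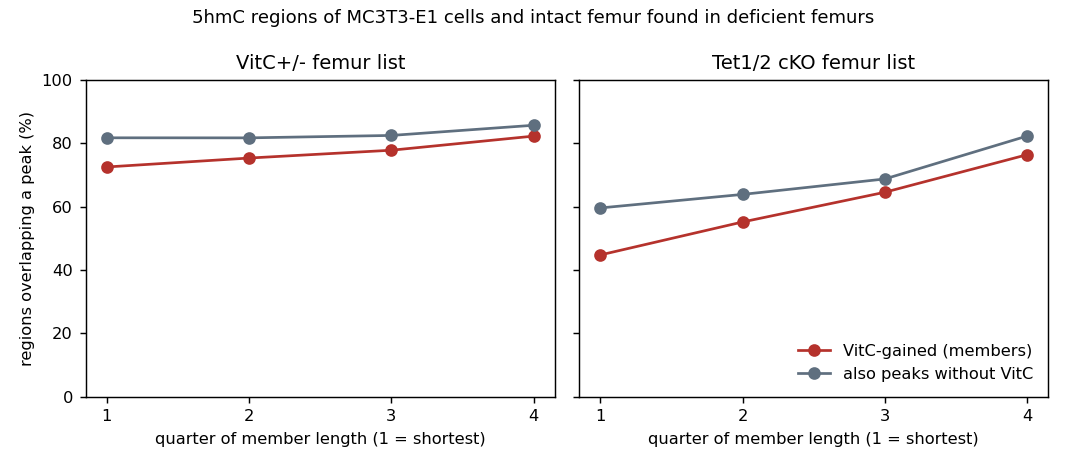
Share of regions that overlap a peak of the VitC+/- femur list (left) or the Tet1/2 cKO femur list (right) in percent, against 4 classes of member length, for members and VitC-independent regions in both intact femur lists. The members rise from 72.5% to 82.2% on the left and from 44.7% to 76.4% on the right and lie below the other set in each class.

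The strength of the femur peak went along with its presence in the deficient lists. Split at the quartiles, of the members with the weakest VitC+ femur peaks (fold under 4.10) 51.2% were in the VitC+/- list, and of those with the strongest (fold of 7.65 or more) 97.1% were. For VitC-independent regions in the same classes the shares were 54.8% and 99.0%. For Ctrl and Tet1/2 cKO they were 19.2% and 91.0% in members and 33.1% and 97.6% in VitC-independent regions. Where both VitC+ and VitC+/- femur had a peak, the fold was lower in VitC+/- at 68.0% of members, with a median log2 ratio of -0.18. It was lower at 62.6% of VitC-independent regions, with a median of -0.13. Between Tet1/2 cKO and Ctrl the fold was lower at 75.9% of members with a median of -0.29, and at 66.8% of VitC-independent regions with a median of -0.18. Both sets were chosen by a peak in the VitC+ and Ctrl lists, which can by itself favour a lower fold in the paired deficient list. Among gained peaks in only 1 femur list, the VitC+/- fold was lower at 48.6%, with a median of 0.01. The Tet1/2 cKO fold was lower at 70.2% of such peaks, with a median of -0.21. A fold also depends on the depth and background of its pooled list, and these were not equalized.

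Position in the gene went with the Tet1/2 cKO share. Of intronic members 63.1% had a Tet1/2 cKO peak, of those at start sites 64.9% and of intergenic ones 47.7%. For the VitC+/- list the same 3 classes had 78.6%, 76.5% and 71.5%. VitC-independent regions had 78.4%, 81.8% and 66.2% in the Tet1/2 cKO list, so the order there was not particular to members. In the VitC+/- list they had 85.4%, 79.8% and 82.2%.

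H3K27me3 (set by Polycomb) and H3K9me3 (of heterochromatin) are repressive histone marks whose demethylases also use VitC. Few members lay in either. Of all members, 3.46% (exact binomial interval 3.28 to 3.65%) overlapped an H3K27me3 peak of VitC- MC3T3-E1 cells and 2.49% one of VitC+ cells. For H3K9me3 the shares were 2.75% (2.59 to 2.92%) and 0.98%. With histone peaks of -log10 q of at least 2 the VitC- shares were 2.09% and 1.22%, and with an overlap of at least 50% of the member 2.18% and 1.46%. Overlap with the VitC- list alone was found at 1.599% of members for H3K27me3 and 1.98% for H3K9me3, and overlap with the VitC+ list alone at 0.63% and 0.21%. The lists themselves cover more ground without VitC, 233406224 against 144741557 bp for H3K27me3 and 66830690 against 43959513 bp for H3K9me3. Gained peaks in neither femur list were in H3K27me3 of VitC- cells more often, at 7.58%, and in H3K9me3 at 4.44%. VitC-independent regions had 4.28% and 4.33%. Intergenic members had the most, with 8.04% in H3K27me3 and 5.04% in H3K9me3. The histone lists are of cells cultured for 7 days by the study's methods and 28 days by the labels, and hold peaks down to a -log10 q of 1.01.

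Members came in runs. Joined across gaps of up to 5 kb they made 24760 runs, of which 17315 were single members and 2960 held 3 or more, together 11933 members. Among the longest were those of Lmo7, a LIM domain protein at actin junctions, with 17 and 15 members, Ranbp9, a scaffold protein, with 17 members in 40280 bp, and Trps1, a GATA-type repressor of skeletal development, with 15. The run in Ranbp9 had no VitC-independent region, as defined above, between its members, and that in Trps1 had 4. Per megabase, members ranged from 11.6 on chromosome 7 to 19.6 on chromosome 18.

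A gene that a member touches is called a host. There were 8436 hosts, 6339 of them protein-coding, out of 21774 protein-coding genes annotated. Of the hosts, 3891 had 1 member, 3040 had 3 or more and 221 had 20 or more. Hosts were long, with a median span of 35484 bp against 9222 bp for other genes, so the number of members is partly a matter of length.

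The genes with the most members were long. Rbms3, an RNA-binding protein, had 83 members over 1057168 bp, and Lpp, a LIM protein of focal adhesions, had 81. The receptor phosphatases Ptprg and Ptprm had 78 and 76, the E-protein Tcf4 had 77, and the teneurin Tenm4 had 68. Maml3, a Notch coactivator, and Pard3b, a polarity protein, had 63 each, the cyclin-dependent kinase Cdk14 and the junction scaffold Magi1 had 62 each, and the forkhead factor Foxp1 and the F-box gene Fbxl17 had 61 and 57. They differed in how many members overlapped a peak of the deficient lists. In Tcf4 73 of 77 members were in the Tet1/2 cKO list, in Cdk14 24 of 62 and in Pard3b 20 of 63, beside 60.2% of all members. In the VitC+/- list the same genes had 65, 54 and 50, beside 76.9% of all members. None of the 11 of these genes tested for RNA passed the threshold in VitC+/- against VitC+. Of all genes, 7.52% were lower and 5.93% higher, and so few genes cannot be told apart from those shares.

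Per 10 kb of span, among hosts with at least 5 members, the densest were Gm51580 and Gm31439, which are non-coding, and the splicing factor Hnrnph1 with 4.44 members per 10 kb. The translation factor Eif4g2 (3.99), Pcnp (3.52), 1810013L24Rik (3.47), the Hippo scaffold Sav1 (3.46), the non-coding Gm4129 (3.398), the protein kinase A subunit Prkar1a (3.39) and the non-coding Gm39326 (3.34) followed. Of the 6 members in Eif4g2 and the 5 in Pcnp, all were in both deficient lists. In Hnrnph1 5 of 5 were in VitC+/- and 4 of 5 in Tet1/2 cKO. No VitC-independent region lay in Eif4g2 or Pcnp.

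Of the protein-coding genes on chromosomes 1 to 19, 30.8% were hosts and 50.3% had a member in their span or within 30 kb of the start site. The counts by list are of the latter kind. Of 35 genes for integrins, focal adhesion and actin 34 had one, and 32 were hosts with 386 members in all. Of 38 genes of BMP and TGF-beta signalling 32 had one, of 37 collagens and matrix proteins 33, of 39 Wnt genes 34, and of 10 fibroblast and marrow stroma genes all 10. Of 25 osteoblast transcription factors 18 had one and 10 were hosts, and of 24 Notch and Hedgehog genes 12. Markers of other cells had a member at 7 of 14 genes for adipocytes, 5 of 14 for skeletal muscle, 7 of 12 for B-cell precursors, 4 of 12 for neutrophils, 6 of 11 for chondrocytes, 6 of 10 for endothelium, 3 of 10 for osteoclasts and 1 of the 9 erythroid genes annotated. Ebf1, counted among the B-cell precursor genes but also expressed in marrow stroma, held 52 of the 53 members in that list. These lists differ in gene length and were not tested.

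Named by the number of members, the signalling genes with most were Ltbp1 (24), which anchors latent TGF-beta, the co-receptor Tgfbr3 (16) and the BMP receptor Acvr1 (15), then Gsk3b (25), Lrp6 (18) and Tcf7l2 (11) of the Wnt pathway. Maml3 (63), Maml2 (36) and Gli3 (33) led the Notch and Hedgehog genes, and Igf1r (35), Spred1 (16) and Fgfr2 (13) the growth factor genes. Among matrix genes these were Col24a1 (41), Col12a1 (20) and Fbn2 (19), and among collagen modifying enzymes Plod2 (18), the lysyl hydroxylase of telopeptides, Adamts2 (15) and the prolyl hydroxylase subunit P4ha1 (9). Of the 18 members in Plod2, 17 were in each deficient list. In Fbn2 16 of 19 were in VitC+/- and 5 in Tet1/2 cKO, and in Col24a1 38 and 18 of 41. Among focal adhesion genes Lpp, Palld (36) and Arhgap26 (33) had most, among chromatin enzymes the demethylase family genes Jmjd1c (28), Kdm5b (14) and Kdm7a (7), and among mineralization genes Ano6 (30), the pyrophosphate transporter gene Ank (19) and the phosphate transporter Slc20a2 (10). Pdgfra, a receptor of mesenchymal progenitors, had 10 members, 9 of them in each deficient list, and no VitC-independent region.

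Of the 59 bone-selective genes, 35 had a member in the span or within 30 kb of the start site, against 50.3% of protein-coding genes, and 23 were hosts. At 19 of the 59 there were 3 or more, against 22.5% of protein-coding genes. Together they had 198 members, of which 151 (76.3%) were in the VitC+/- list and 145 (73.2%) in the Tet1/2 cKO list. Their folds ran from 3.18 to 21.4 with a median of 6.20. Of the 198, 5 overlapped H3K27me3 and 8 H3K9me3 of VitC- cells. Runx2, the master regulator of osteoblasts, had 23 beside 50 VitC-independent regions, with 18 and 17 in the deficient lists. Mef2c, which controls Sost in osteocytes, had 22 with 21 in each, and Insc, an adaptor of spindle orientation, had 10 with 8 and 6.

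**Figure D3:**
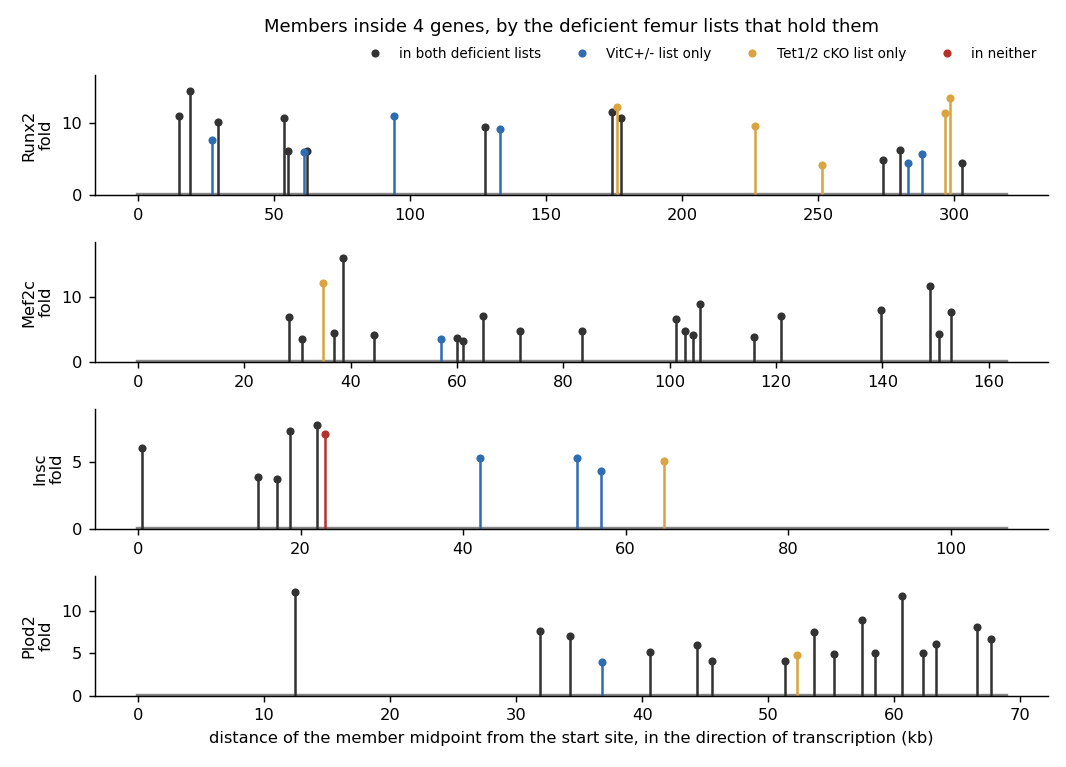
Members inside the bone-selective genes Runx2, Mef2c and Insc, and inside Plod2. Each stem is a member, placed by its distance in kb from the start site (x axis), with its fold enrichment in VitC+ MC3T3-E1 cells as height (y axis), and its colour says which deficient femur lists hold a peak there. Runx2 has the most, with 23 members, and in Plod2 and Mef2c nearly all stems are in both deficient lists.

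Smaller bone genes had members around them. Bglap, encoding osteocalcin, had none inside its 972 bp but 5 within 30 kb, of which 2 were in VitC+/- and all 5 in Tet1/2 cKO. At Pth1r, the parathyroid hormone receptor, 1 of 5 members was in VitC+/- and 5 of 5 in Tet1/2 cKO. Its strongest member, 2750 bp long with a fold of 16.8 in the cells, had a fold of 4.30 in VitC+ femur, 6.41 in Ctrl and 9.54 in Tet1/2 cKO, and no peak in VitC+/-. Alkaline phosphatase, Alpl, had 4 members in its introns, all in both deficient lists, and 2 upstream that were not in VitC+/-. On chromosome 5 the mineral matrix genes lie side by side and share members: Ibsp had 7 within reach, Spp1 7, Mepe 6 and Dmp1 4, and those between Ibsp and Mepe count for both. Others with 3 or more were Tnc (10), Rhbdl2 (6), Dlx6 (4), Bmp2 (3), Lox (3), Lrp5 (3), Prss35 (3) and Slc13a5 (3).

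Femur RNA was then compared in the hosts. The RPKM libraries had about 7580000 reads in WT replicate 1 and 31320000 to 47340000 in the other 8, as computed from the low values, and the Tet libraries with recoverable reads had 28597536 to 49788434. Osteoblast genes were high (Col1a1 101 to 2892 and Ibsp 122 to 1202 scaled RPKM), and the osteocyte gene Sost was at 3.34 to 36.3. Gulo was at 0.54, 0.44 and 0 scaled RPKM in WT, 0.24, 0.03 and 0.03 in VitC+ and 0.01 to 0.02 in VitC+/-. The library labelled WT replicate 3 thus lacked it and that labelled VitC+ replicate 1 had more than its group. The sum over 12 neutrophil markers ranged from 29376 to 46711 scaled RPKM in VitC+ and from 7115 to 23859 in VitC+/-, and 2 of 11 tested were lower. That over 10 osteoclast markers ranged from 1892 to 2595 and from 2945 to 6523, with 4 of 10 higher. That over 12 B-cell precursor genes ranged from 212 to 344 and from 187 to 225, with 9 of 11 lower, and that over 11 chondrocyte genes from 240 to 619 and from 45 to 72, with 3 of 7 lower. The 14 adipocyte genes ranged from 390 to 640 and from 419 to 3500, with 1 of 12 higher. Sums over 14 skeletal muscle genes varied widely within groups, from 42.8 to 1521 in VitC+, 10.2 to 654 in VitC+/- and 9.94 to 891 in WT. None of the 11 tested was called against VitC+ or WT. In WT, the neutrophil sum ranged from 52540 to 74310, with 11 of 11 tested lower in VitC+/-, and the osteoclast sum from 794 to 867, with 9 of 10 higher. Of the B-cell precursor genes 9 of 11 were lower against WT, and of the adipocyte genes 8 of 12 higher. The chondrocyte sum ranged from 55.2 to 153 in WT, nearer to VitC+/- than to VitC+, and 1 of 7 tested was lower against WT. Sums over the bone-selective genes ranged from 2165 to 5836 in WT, 9211 to 14492 in VitC+ and 5352 to 13651 in VitC+/-. The part of these cells in the results that follow was not tested, and fewer cells of a type cannot be told from less RNA per cell. Tet1 and Tet2 gene totals do not resolve the deleted exons and check nothing.

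Of 8436 hosts 5418 passed the filter on low values (RPKM of at least 1 in 3 libraries). In VitC+/- against VitC+ femur, limma over all 12586 genes called 7.52% lower and 5.93% higher at an adjusted p under 0.05. Of the hosts 309 (5.70%) were lower and 355 (6.55%) higher. Their median log2 fold change was 0.08 against 0.02 for all genes. Of the 6826 matched genes without a member, 9.05% were lower and 5.42% higher. The host shares were thus close to the background, with fewer falls. Lower calls made up 46.5% of host calls, and 35.8% with RPKM as deposited (111 lower, 199 higher), a scaling that moves the median of all genes to 0.13. Among the 692 hosts with 10 or more members 5.35% were lower and 5.49% higher. Without 1 library the host counts fell as far as 92 lower (VitC+ replicate 3) and 77 higher (VitC+ replicate 2), with 135 and 118 without VitC+ replicate 1, 93 and 86 without VitC+/- replicate 1 and 204 and 208 without WT replicate 3, which enters only through the spread.

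Against WT femur, with the same VitC+/- libraries, limma called 15.9% of all genes lower and 15.3% higher. Of the hosts 658 (12.1%) were lower and 985 (18.2%) higher. In genes with 10 or more members 6.36% were lower and 27.7% higher, and in those without a member 19.4% and 13.1%. Among long genes, of those spanning 100 kb or more, 27.7% of hosts with 10 or more members and 17.4% of genes without a member were higher. RPKM as deposited gave 332 hosts lower and 758 higher, and a fit of only both groups compared 431 and 686. Without WT replicate 3 the host counts were 347 and 543, and without VitC+/- replicate 1 383 and 607. Across the 1538 hosts tested with at least 5 members, which are not independent, Spearman's rho between the share of members kept in the VitC+/- list and the log2 fold change was 0.0049 against VitC+ and -0.075 against WT, as a description.

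**Figure D4:**
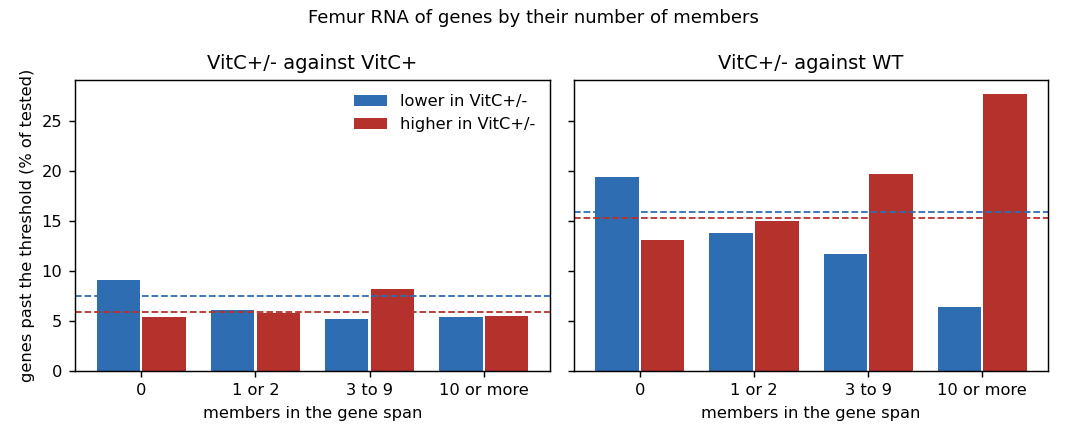
Share of tested genes past the threshold (y axis, percent) as lower (blue) or higher (red) in VitC+/- femur, by the number of members in the gene span (x axis), against VitC+ (left) and WT (right). Dashed lines are all genes tested. Against WT the higher share was 13.1% without a member and 27.7% with 10 or more, while against VitC+ it was 5.42% and 5.49%.

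Of 2465 hosts tested with at least 3 members, 129 were lower and 183 higher against VitC+, beside 7.52% and 5.93% of all genes. Of these, 89 falls and 159 rises were in genes averaging 5 RPKM or more in whichever group was higher. The largest fall among the latter was in the hepatic lipase Lipc. With 9 members, it had 27.9, 14.5 and 25.05 scaled RPKM in VitC+, 0.44, 0.24 and 0.38 in VitC+/- and 8.55, 3.43 and 6.65 in WT. Its log2 fold change was -4.71 (standard error 0.33, limma adjusted p = 0.000377) against VitC+ and -2.90 against WT. Mlip, a lamin-interacting protein of muscle with 12 members, had 26.1, 16.9 and 24.9 in VitC+ and 1.55, 0.60 and 0.89 in VitC+/-, a fall of -3.96 (0.51, limma adjusted p = 0.00299). In both genes all VitC+/- libraries were below those of WT, and below those of VitC+ as the choice of genes required.

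Col24a1, a fibrillar collagen of developing bone, combined a high number of members with a fall. It had 9.05, 7.09 and 12.5 scaled RPKM in VitC+, 0.18, 0.11 and 0.37 in VitC+/- and 3.06, 1.04 and 2.39 in WT. The log2 fold change was -3.78 (0.33, limma adjusted p = 0.000565) against VitC+ and -1.82 (limma adjusted p = 0.00426) against WT. Of its 41 members 38 had a peak in VitC+/- femur, and at 34 of these 38 the fold was lower there than in VitC+ femur. Over all members with both peaks the fold was lower at 68.0%. In Mef2c, whose RNA also fell, it was lower at 14 of 21. A link between these folds and the RNA was not tested. Col11a1 (16 members, -3.28, limma adjusted p = 0.0227), the neutral sphingomyelinase Smpd3 (7 members, -3.23, 0.0166), decorin, Dcn (6 members, -2.67, 0.01004), the convertase Pcsk6 (12 members, -2.55, limma adjusted p = 0.0131) and Plbd1 (4 members, -2.46, 0.000377) followed. Col11a1 missed the threshold without any 1 of VitC+ replicates 1, 2 and 3 and VitC+/- replicate 1, Smpd3 without VitC+ replicate 2 or 3 or VitC+/- replicate 1, and Pcsk6 without VitC+ replicate 3 or VitC+/- replicate 1, with limma adjusted p of up to 0.0787, 0.0629 and 0.0529.

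Mef2c also fell. It had 12.6, 16.7 and 19.3 scaled RPKM in VitC+ and 7.72, 3.97 and 7.02 in VitC+/-, with a log2 fold change of -1.33 (0.30, limma adjusted p = 0.0235) and no call against WT. Insc had -1.88 (limma adjusted p = 0.0442), Rhbdl2 -2.03 (0.0341), Prss35 -3.76 (0.00592) and Dmp1 -1.27 (0.0186). Runx2 had 10.1, 11.1 and 13.5 in VitC+ and 7.29, 5.30 and 8.94 in VitC+/-, with -0.67 and a limma adjusted p of 0.0575. Of the 34 bone-selective genes with a member that were tested, 13 were lower and 1 higher against VitC+, with a median of -1.20, and of all 58 tested 22 were lower and 2 higher, with a median of -1.05. Against WT, 4 of the 34 were lower and 7 higher, and 5 and 13 of the 58, both with a median of 0.05. The study drew up this list from RNA-seq of many tissues. The gene that was higher was Spp1, osteopontin, with 1362, 1448 and 1411 scaled RPKM in VitC+ and 4203, 2286 and 4138 in VitC+/-, a rise of 1.28 (0.28, limma adjusted p = 0.0192). The 2 members inside Spp1 were in both deficient lists.

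Among the largest rises was Fkbp5, an FK506-binding co-chaperone of steroid receptors. With 7 members, it had 11.7, 15.5 and 10.8 scaled RPKM in VitC+, 46.2, 75.9 and 37.0 in VitC+/- and 15.2, 26.0 and 19.7 in WT. It rose by 1.98 (0.28, limma adjusted p = 0.00434) against VitC+ and by 1.33 against WT. The kinase Sgk1, with 5 members, had 8.69, 8.66 and 9.05 in VitC+ and 25.7, 38.05 and 27.4 in VitC+/-, a rise of 1.71 (0.16, limma adjusted p = 0.000680). Klf9, a Krüppel-like factor with 3 members, rose by 1.47 (limma adjusted p = 0.00832). Tead1, the factor of the Hippo pathway, had 24 members, of which 22 were in VitC+/- and 20 in Tet1/2 cKO. Its RNA was 1.44, 1.54 and 1.82 in VitC+, 4.22, 6.71 and 6.28 in VitC+/- and 1.27, 0.45 and 0.78 in WT, a rise of 1.55 (0.26, limma adjusted p = 0.00818). Medag (1.96), Eya2 (1.77), Fnip2 (1.62) and Pawr (1.58) also rose. Medag and Pawr missed the threshold without VitC+ replicate 2 or 3, and Pawr also without VitC+/- replicate 1, with limma adjusted p of up to 0.0681 and 0.0703. All 16 genes were chosen by their change in these libraries.

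**Figure D5:**
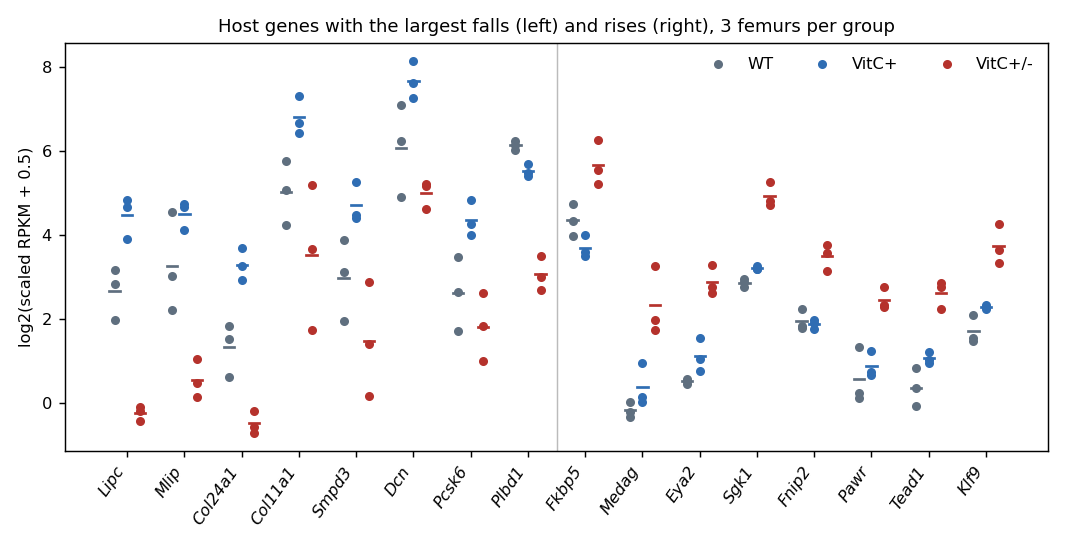
Femur RNA, as log2(scaled RPKM + 0.5), of the 8 hosts with the largest falls (left) and the 8 with the largest rises (right) among hosts with at least 3 members and a mean of 5 RPKM or more where higher. Points are single libraries, 3 per group, and bars their means on the log2 scale. VitC+/- (red) lies apart from VitC+ (blue) in each gene by the choice of genes, which required that these groups do not overlap. The order of WT (grey) differs by gene, with Plbd1 highest in WT.

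In the other lists, genes with a member in the span or within 30 kb are set beside 7.52% lower and 5.93% higher of all genes against VitC+. Of 29 tested genes of BMP and TGF-beta signalling 2 were lower and 6 higher, of 29 Wnt genes 2 and 3, of 17 osteoblast transcription factors 3 and 5, of 32 collagen and matrix genes 7 and 4, of 18 collagen modifying enzymes 1 and 0, of 33 integrin, focal adhesion and actin genes 0 and 3, of 16 chromatin enzymes 0 and 4, of 17 growth factor genes 0 and 2, of 13 mineralization genes 3 and 1, and of 11 Notch and Hedgehog genes none. Against WT, where 15.9% of all genes were lower and 15.3% higher, the same BMP and TGF-beta genes had 0 lower and 19 higher, the Wnt genes 0 and 9, the osteoblast transcription factors 0 and 7, the collagen and matrix genes 3 and 16, the collagen modifying enzymes 0 and 7, the integrin, focal adhesion and actin genes 2 and 17, the chromatin enzymes 0 and 4, the growth factor genes 1 and 9, the mineralization genes 2 and 2 and the Notch and Hedgehog genes 0 and 3. Plod2 had 32.5, 30.8 and 51.7 scaled RPKM in VitC+ and 19.1, 6.42 and 41.8 in VitC+/-, groups that overlap (log2 fold change -1.08, limma adjusted p = 0.246). Pdgfra had -0.31 (limma adjusted p = 0.413) against VitC+ and 1.31 (limma adjusted p = 0.00415) against WT.

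In Tet1/2 cKO against Ctrl femur, limma called 0% of 16780 genes lower and 0% higher, and so 0 of the 6271 hosts tested. At an unadjusted p under 0.05 there were 847 genes, 291 of them hosts. The median log2 fold change was 0.03 in hosts and -0.01 over all genes. Over the bone-selective genes with a member it was -0.94, and over collagen and matrix genes -1.03, chondrocyte genes -2.24 and skeletal muscle genes -3.42 with a member, with no gene past the threshold. Over all tested genes of these lists, with or without a member, the medians were -0.93, -1.01, -3.27 and -3.68 in the same order. These falls were thus not particular to genes with a member. edgeR on recovered reads also called no host. DESeq2 called 3 hosts lower (0.0478%), where 0.0596% of all genes were lower. They were Car12, Krt75 and Syt6, with log2 fold changes of -2.58, -3.80 and -2.33 and DESeq2 adjusted p of 0.00129, 0.00983 and 0.0217. They were named after their values were seen, and limma gave each an adjusted p of 0.723. Plod2 and Col24a1 had -1.26 and -0.78, with limma adjusted p of 0.723 and 0.756 in this comparison.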

How the data were processed

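For hMeDIP-seq and ChIP-seq, the authors aligned reads to mm10 by BWA. Peaks came from MACS2, run for 5hmC on the pooled replicates of a group, while the histone peak names show 1 replicate. The deposited lists give each peak's fold enrichment over local background, a ratio, its -log10 q and, for the cell 5hmC lists, the pileup signal at the summit. The deposited VitC femur RNA-seq values are RPKM per gene and library. The deposited Tet femur table holds a signal, gene counts (featureCounts 1.6.3 after STAR 2.6.0b-1, per the labels) divided by DESeq2 size factors, from which whole reads were recovered in all libraries but 1.

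Members and gene lists were chosen with earlier results of these data known. Overlaps of at least 1 bp were counted in Python 3.11.15 with numpy 2.4.6, pandas 2.3.3 and pysam 0.24.0, against RefSeq gene models of GRCm38.p6, and intervals are exact Clopper-Pearson. RPKM were scaled by median of ratios, kept at 1 or more in 3 libraries, and tested as log2(RPKM + 0.5) with limma 3.58.1 over all 9 VitC femur libraries. Normalized counts of at least 10 in 3 libraries were tested as log2(count + 1) over all 12 Tet femur libraries. Fold changes are on these scales and understate the change of low genes. Adjusted p is Benjamini-Hochberg over all genes tested. The labels do not say that pairs of libraries share a litter. The limma p-values rest on the spread between the 3 femur libraries of a group. It was pooled over all groups of a fit and drawn toward a trend over all genes. Of the RPKM entries, 93.7% matched an annotated gene, and of the normalized-count genes 88.7%. Overlapping genes share members, and without a stated strand setting their reads cannot be told apart.

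Named genes were the 12 hosts with most members, the 10 with most per 10 kb, bone-selective genes with at least 3, the hosts of the 10 strongest members, the 8 largest falls and rises among hosts with at least 3 members, no overlap between groups and at least 5 RPKM on average in the higher group, and the 3 genes with most members of each other list. No member among the 10 strongest was short enough to print whole, so bases around the summit are given. Alternatives were other minima, overlaps, scalings and pseudocounts, single libraries left out, a replicate block, and edgeR 4.0.16 and DESeq2 1.42.0 on recovered reads. The overlap counts, the membership rule and the limma fits were tested on simulated data. A gene that these rules name is not reported here.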

Additional observations from a re-analysis of the deposited data

How the results depend on the processing

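With a minimum -log10 q of 10 for members, 78.7% were in the VitC+/- list, 64.8% in the Tet1/2 cKO list, 2.94% in H3K27me3 and 2.96% in H3K9me3 of VitC- cells. With no minimum the first 3 shares were 76.2%, 57.4% and 3.87%. With an overlap of at least 50% of the member they were 65.6%, 51.7% and 2.18%, with 1.46% in H3K9me3 and 79.8% touching a gene. With no VitC- peak within 1 kb, 80.2% touched a gene. With femur peaks of -log10 q of at least 5, 76.3% and 45.1% were in the deficient lists, and with histone peaks of at least 2, 2.09% and 1.22% were in the marks.

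Against VitC+, hosts with at least 3 members gave 129 lower and 183 higher, genes with a member within 30 kb 506 lower, and RPKM as deposited 111 and 199. Against WT these settings gave 251 and 542, 1117 lower and 332 lower, and a fit of only both groups compared gave 431 lower. Without 1 library each, hosts lower ranged from 92 to 405 and higher from 77 to 523 against VitC+, and from 347 to 720 and 543 to 1011 against WT. In Tet1/2 cKO both stayed at 0 in each such fit, and DESeq2 gave 3 lower. The cause of these differences was not tested.

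Same-numbered libraries did not deviate together in every pair (correlations from -0.192 to 0.464), so the numbers were not taken as pairs. With the replicate block, 396 hosts were lower and 471 higher against VitC+, 750 and 1132 against WT, and 0 and 0 in Tet1/2 cKO. Of the 16 named falls and rises, each kept its direction in all settings run. Depth limits low genes most in WT replicate 1, with 7580000 reads.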
